A study of Bos taurus with 12 samples.

Results

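The genes described here encode matrix metalloproteinases (MMPs) and tissue inhibitors of metalloproteinases (TIMPs) in cultured bovine muscle cells. They were chosen by name, with earlier results of these data known, as a set of 9 genes (MMP2, MMP9, MMP11, MMP14, MMP15, MMP16, MMP19, TIMP2 and TIMP3). Of these, 8 had a row in the gene table, out of 18436 genes in all, and MMP9 was not analysed here. The study profiled primary myoblasts from the longissimus dorsi muscle of newborn Qinchuan cattle, a beef breed. The first group, GM, held proliferating myoblasts in growth medium with fetal bovine serum, and the second group, DM, held myotubes after 4 days in differentiation medium with horse serum. Both media held penicillin and streptomycin, and the labels name no other agent and no genetic change in either group. Each group gave 3 input libraries of fragmented poly(A) RNA and 3 libraries of the same kind of RNA pulled down with an antibody to N6-methyladenosine (m6A), 12 libraries in all. The study's methods describe a single donor animal and nothing names separate animals, so the p-values below measure the spread between cultures or preparations only.

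MMPs are zinc-dependent proteases that cut collagens and other proteins of the extracellular matrix. They are made as inactive proenzymes, and TIMPs bind and block the active enzymes. In muscle, matrix remodelling accompanies myoblast migration, fusion and repair. On the surface of cells, MMP14 activates the MMP2 proenzyme in a complex that contains TIMP2, so TIMP2 is known both as an inhibitor and as a partner in this activation.

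Levels were given by the authors as FPKM, the fragments of a gene scaled to its exon length and to the mapped fragments of the library, which can be compared between genes because they are scaled to length. Read counts per gene were not used here, so no counting error is given for a value. The sum of FPKM was 415740 to 434458 in the GM libraries and 386436 to 390827 in the DM libraries. Of the markers of myogenic cells, all 10 were measured, and the labels of the groups could be checked against them. MYH3, the embryonic myosin heavy chain, was 273.0 ± 2.74 FPKM (SD, n = 3) in GM and 659 ± 15.0 FPKM in DM, PAX7, a marker of muscle stem cells, was 1.08 ± 0.0972 and 0.0624 ± 0.0339 FPKM, and MYOG, a factor of early differentiation, was already at 197 ± 8.95 FPKM in GM and at 243 ± 14.9 FPKM in DM. In total 3 of the 10 markers were higher and 4 were lower in DM, with ACTA1, the skeletal muscle actin, among the lower ones, and their summed level was 1126 to 1212 FPKM in GM and 1570 to 1622 FPKM in DM. Fibroblast markers summed to 13630 to 13866 FPKM in GM and 13984 to 14768 FPKM in DM, and 1 of 8 of them, FAP, was higher in DM. Most of these sums came from COL1A1, at 6791 and 7420 FPKM, and COL1A2, at 5757 and 5496 FPKM. TCF21 was at 2.15 FPKM in GM and 1.68 FPKM in DM, and the other fibroblast markers lay between TCF21 and these collagens. Markers of pericytes and smooth muscle summed to 2059 to 2508 FPKM in GM and 1659 to 1923 FPKM in DM, with 1 higher and 1 lower of 4 tested. Nearly all of this was ACTA2, at 2241 FPKM in GM and 1713 FPKM in DM. PDGFRB was at 28.2 and 33.5 FPKM, CSPG4 at 3.07 and 5.82, NOTCH3 at 2.13 and 0.854, and MYH11 at 0.282 and 0.529 FPKM. The 4 measured endothelial markers stayed under 0.5 FPKM, those of macrophages and leukocytes summed to 1.34 to 1.96 FPKM in GM and 1.15 to 2.12 FPKM in DM, and those of adipocytes to 1.21 to 1.36 FPKM in GM and 1.94 to 2.66 FPKM in DM. The part of other cell types in the MMP and TIMP levels was not tested.

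The input libraries were compared between DM and GM to find which MMP and TIMP transcripts change when myoblasts become myotubes. A gene was called changed when limma gave an unadjusted p under 0.05 and the fold change of FPKM + 1 was over 1.5, the thresholds of the study. MMP2, TIMP2 and TIMP3 rose in DM, MMP11 and MMP19 fell, and MMP14, MMP15 and MMP16 did not pass both thresholds. By this rule 11.9% of the 12302 tested genes were called, 4.9% higher and 6.97% lower, and 5 of the 8 members were called, 3 higher and 2 lower. Since the members were chosen with earlier results of these data known, the shares of members and of all genes are not a test of the family. At a Benjamini-Hochberg adjusted p under 0.05 alone, 6 of the 8 members passed, against 42.8% of all tested genes. The values of the 2 groups did not overlap for 7 of the 8 members and for 54.1% of all tested genes. The median log2 fold change was 0.19 over the 8 members and -0.05 over all tested genes. These are levels in bulk RNA, in which fewer cells of a type and less RNA per cell cannot be told apart.

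**Figure D1:**
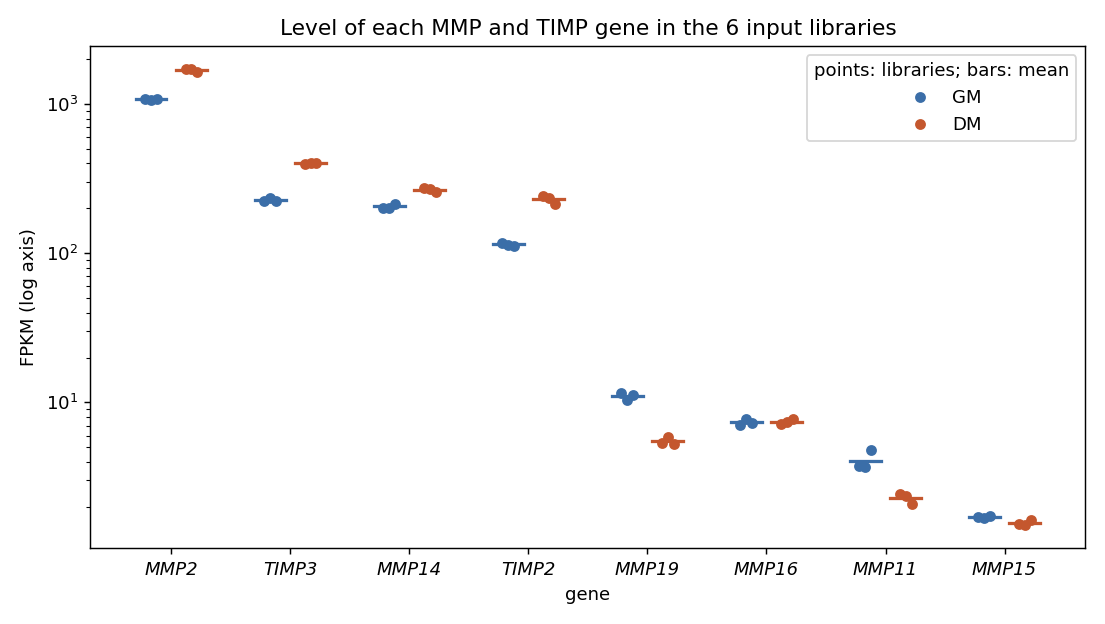
Level of each of the 8 MMP and TIMP genes in the 6 input libraries, in FPKM on a log axis, with 1 point for each library and a bar at the mean of the 3 libraries of a group. MMP2 lay highest and MMP15 lowest in both groups, and the GM and DM points overlapped only for MMP16.

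MMP2, gelatinase A, is a secreted protease that cuts denatured collagen and basement membrane collagen. Its gene (ENSBTAG00000019267) lies at chr18:23752891-23780118 on the plus strand of ARS-UCD1.2, the build used for all positions here. MMP2 stood at 1075, 1070.2 and 1088 FPKM in the 3 GM libraries and at 1724, 1710 and 1640 FPKM in the 3 DM libraries. All DM libraries were above all GM libraries, and the distance between the groups was larger than the spread in either. The log2 fold change, DM against GM, was 0.65 ± 0.0501 (SE, 95% interval 0.53 to 0.76), with a limma adjusted p of 2.65e-05. MMP2 was already the 55th most abundant of the tested genes in GM and was the 12th in DM. It made up 81.9 to 82.6% of the summed FPKM of the 6 MMP members in GM and 85.6 to 85.7% in DM.

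MMP14 is the membrane-bound protease MT1-MMP, a collagenase of the cell surface. The gene (ENSBTAG00000014824) lies on the minus strand at chr10:21967557-21978162. MMP14 measured 202, 201 and 215 FPKM in GM and 272, 270.1 and 256 FPKM in DM, and the groups did not overlap. Its change was 0.37 ± 0.0512 on the log2 scale (95% interval 0.25 to 0.48, limma adjusted p = 0.000712), which is a 1.29-fold difference and so below the 1.5-fold threshold.

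MMP15 and MMP16 are the membrane-type proteases MT2-MMP and MT3-MMP. MMP15 (ENSBTAG00000012919, chr18:25939947-25960720, plus strand) was the least abundant member, with 1.71, 1.69 and 1.74 FPKM in GM and 1.52, 1.498 and 1.64 FPKM in DM. The DM values were the lower ones in every library, but the log2 difference was -0.09 (95% interval -0.24 to 0.07, limma adjusted p = 0.344). MMP16 (ENSBTAG00000006877, chr14:74381958-74776968, plus strand), whose gene is the longest of the members, measured 7.04, 7.74 and 7.24 FPKM in GM and 7.22, 7.41 and 7.71 FPKM in DM. The MMP16 groups overlapped, and the interval of its log2 difference ran from -0.12 to 0.16 around 0.02 (limma adjusted p = 0.836). For both genes, a difference of 1.5-fold lay outside the interval.

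MMP11, or stromelysin-3, is a secreted protease that is activated inside the cell by furin-like proteases. MMP11 (ENSBTAG00000006108, chr17:71231375-71239854, plus strand) measured 3.77, 3.69 and 4.77 FPKM in GM and 2.45, 2.34 and 2.09 FPKM in DM. The third GM library was the highest and the third DM library the lowest. Its log2 fold change was -0.62 ± 0.0962 (95% interval -0.84 to -0.40, limma adjusted p = 0.00124), just past the 1.5-fold threshold. Without GM replicate 3 it was -0.52, without DM replicate 3 it was -0.57 and with median-of-ratios size factors it was -0.57, each below the threshold. The other 11 of 14 alternatives kept the call, with -0.80 where 0.1 instead of 1 was added to FPKM.

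MMP19 is a secreted protease that cuts components of the basement membrane. MMP19 (ENSBTAG00000009051, chr5:57426768-57433048, plus strand) measured 11.6, 10.4 and 11.3 FPKM in GM and 5.32, 5.86 and 5.24 FPKM in DM. The groups lay far apart against the spread within each, with a log2 fold change of -0.90 ± 0.0670 (95% interval -1.06 to -0.75, limma adjusted p = 2.12e-05). MMP19 had the lowest fold change of the members, lower than that of all but 2.89% of the tested genes. The pattern of MMP19 over the 6 input libraries was most like that of RMI2, SEMA3F and PAX7, at Euclidean distances of 0.0927, 0.107 and 0.116 between log2(FPKM + 1) values centred on each gene's mean. This scale shrinks the changes of low genes. PAX7, at 1.08 FPKM in GM and 0.0624 FPKM in DM, changed by a larger factor in FPKM than MMP19.

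TIMP2 and TIMP3 are inhibitors, of which TIMP2 is soluble and TIMP3 is bound to the matrix. TIMP2 (ENSBTAG00000010899, chr19:53460671-53514937, plus strand) stood at 117, 114 and 112 FPKM in GM and at 241, 233 and 215 FPKM in DM. TIMP2 had a log2 fold change of 1.00 ± 0.0553 (95% interval 0.87 to 1.13, limma adjusted p = 4.27e-06), the highest of the members. An unnamed gene on the same strand, ENSBTAG00000039283, lies within TIMP2 at chr19:53483836-53485750 and had a mean level of 0.0544 FPKM in GM and 0.0662 FPKM in DM. TIMP3 (ENSBTAG00000020638, chr5:71388890-71459269, plus strand) stood at 224, 234 and 223 FPKM in GM and at 399, 405 and 401 FPKM in DM. No DM library of either inhibitor came down to the GM levels, and the DM libraries of TIMP3 lay close together, at 402 ± 3.02 FPKM (SD, n = 3). For TIMP3 the log2 fold change was 0.82 ± 0.0454 (95% interval 0.72 to 0.93, limma adjusted p = 4.15e-06). The genes most like TIMP2 over the 6 libraries were LRIG1, ERBB3 and MGC138914, at distances of 0.0929, 0.120 and 0.126. All 3 were low, LRIG1 at 2.86 FPKM in GM and 6.63 in DM, ERBB3 at 2.26 and 5.86, and MGC138914 at 0.639 and 2.28. The scale of these distances shrinks such changes. On that scale their log2 fold changes of 0.98, 1.07 and 1.00 lay near that of TIMP2.

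**Figure D2:**
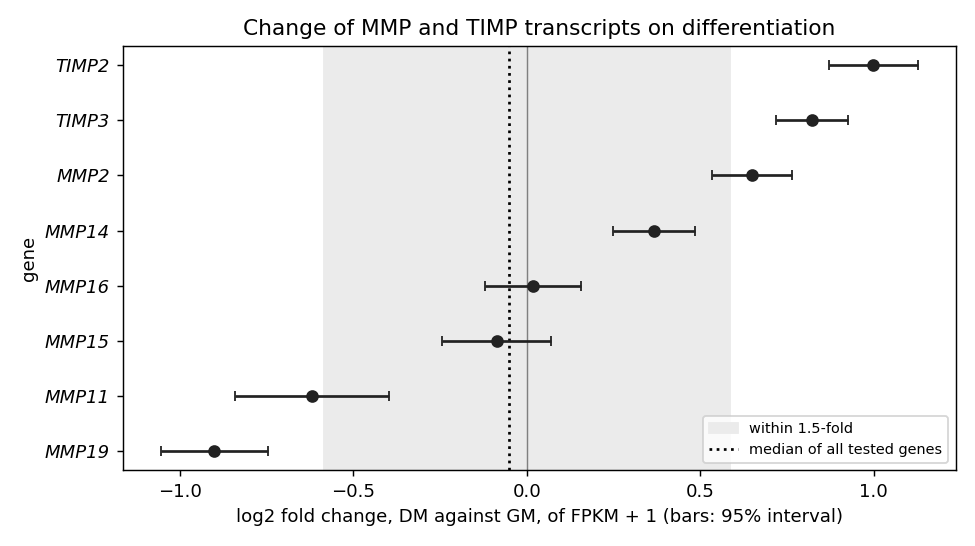
The log2 fold change of FPKM + 1, DM against GM, for the 8 genes, with a point for the limma estimate and a bar for its 95% interval. TIMP2, TIMP3 and MMP2 lie to the right of the shaded band of changes within 1.5-fold, MMP19 and MMP11 to the left, and the dotted line marks the median of all tested genes at -0.05.

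The order of the levels was the same in both groups except for 1 exchange. From the highest down it ran MMP2, TIMP3, MMP14, TIMP2, MMP19, MMP16, MMP11 and MMP15 in GM, and in DM MMP16 stood above MMP19. In neither group did the ranges of 2 neighbours in that order overlap over the 3 libraries. The summed FPKM of the 6 MMP members was 1295 to 1328 in GM and 1913 to 2013 in DM, and that of the 2 TIMP members was 335 to 348 in GM and 617 to 641 in DM. TIMP1 had no row in the gene table, so these sums do not cover all inhibitors. TIMP3 exceeded TIMP2 by 1.98 ± 0.0671 times (SD, n = 3) in GM and by 1.75 ± 0.105 times in DM.

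Ratios within a library do not depend on a scaling factor of that library. The ratio of TIMP2 to MMP14 FPKM was 0.579, 0.568 and 0.520 in GM and 0.887, 0.864 and 0.842 in DM, so the DM values were the higher ones in every library, and the mean ratio was 1.56 times that of GM. The ratio of MMP2 to MMP14 was 5.23 ± 0.152 in GM and 6.36 ± 0.0414 in DM. The 2 inhibitors together reached 0.317 ± 0.00879 times the FPKM of MMP2 in GM and 0.374 ± 0.00229 times in DM. All 3 of these ratios were without overlap between groups, and no test was run on them. The levels of MMP2, MMP14, TIMP2 and TIMP3 were themselves without overlap, as were those of 54.1% of all tested genes. The share without overlap among ratios of other genes was not computed. An exact two-sided permutation test of 3 libraries against 3 cannot give a p below 0.1.

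Other genes of matrix proteolysis were read from 5 lists of 72 genes, of which 60 rows were in the table and 44 passed the filter on low FPKM. Of the 44, 10 were higher and 4 lower in DM, against the 11.9% of all genes called, and their median log2 fold change was 0.14. These lists too were chosen with earlier results of these data known, so this comparison is not a test. Among activators, inhibitors and receptors of MMPs, 5 of 13 were higher and 2 lower, with a median of 0.33. SPOCK1, a secreted proteoglycan of the testican family, went from 2.83 ± 0.227 to 20.5 ± 0.938 FPKM (log2 fold change 2.49, limma adjusted p = 2.05e-07). PCSK6, a proprotein convertase, went from 2.00 ± 0.0592 to 4.71 ± 0.268 FPKM (0.93), while the hyaluronan receptor CD44 fell from 97.6 ± 2.999 to 46.6 ± 2.10 FPKM (-1.05). BSG, the surface protein basigin, which is known to induce MMPs, fell from 668 ± 36.6 to 356 ± 18.3 FPKM (-0.90). The remaining called genes of that list, RECK, a membrane-anchored MMP inhibitor, LRP1, an endocytic receptor, and THBS2, a thrombospondin, rose by log2 fold changes of 0.82, 0.82 and 0.83. They lay outside the naming rule and were named after their values were seen.

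In the plasminogen activator system, which generates the protease plasmin, 1 of 7 tested genes was called. ANXA2, a surface partner of plasminogen activation, fell from 1492 ± 86.4 to 869 ± 8.75 FPKM (log2 fold change -0.78, limma adjusted p = 2.16e-05), and the list's median was -0.08. Of the other matrix and lysosomal proteases and inhibitors, 5 of 15 were higher and 1 was lower, with a median of 0.19. FAP, a surface protease of fibroblasts and one of the fibroblast markers above, rose from 37.5 ± 3.13 to 104.8 ± 9.78 FPKM (1.46). The lysosomal cathepsins CTSH and CTSB rose from 82.8 ± 3.83 to 206 ± 3.18 FPKM (1.31) and from 179 ± 2.17 to 367 ± 13.7 FPKM (1.03). CSTB, an inhibitor of cathepsins, had 2 rows in the table, of which ENSBTAG00000018189 fell from 21.2 ± 1.79 to 8.75 ± 1.54 FPKM (-1.19) and the other, at 186 ± 14.5 and 188 ± 6.63 FPKM (0.02), was not called. CTSK and PRSS23, outside the naming rule, rose by 0.75 and 0.60. None of the 7 tested ADAM proteases was called by limma at these thresholds, although 5 had an unadjusted p under 0.05, as did 6241 of the 12302 tested genes, and their median was 0.16. Of the remaining MMPs and TIMPs, none of the 2 tested was called, with 1 at an unadjusted p under 0.05.

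**Figure D3:**
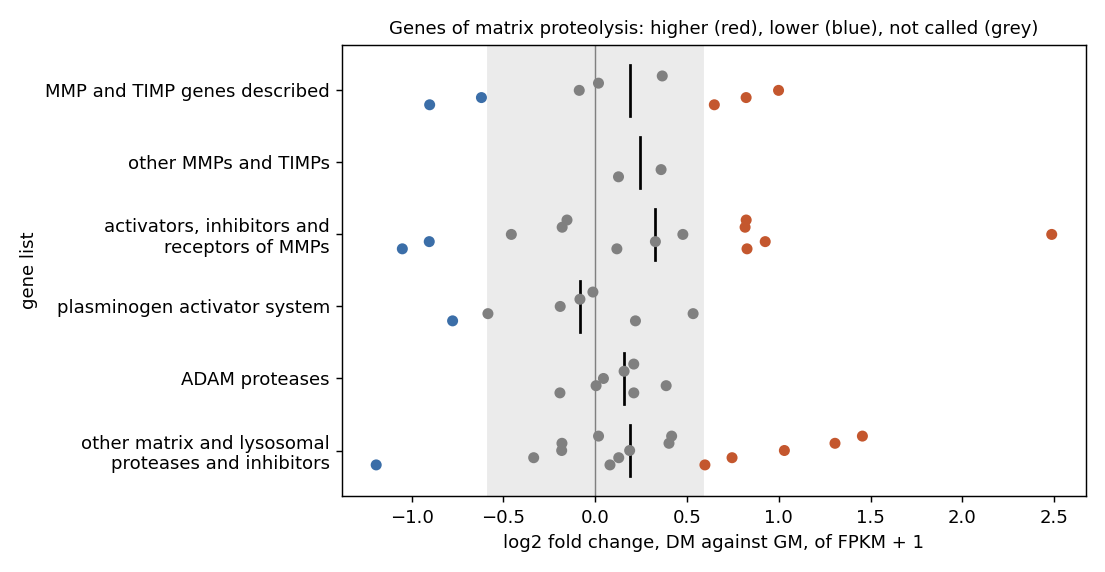
The log2 fold change of FPKM + 1, DM against GM, for each tested gene of the 8 described genes and of the 5 lists, with 1 point for each gene and a vertical line at the median of each list. Points right of the shaded 1.5-fold band were called higher (red) and points left of it lower (blue), and the largest difference in these lists was that of SPOCK1 at 2.49.

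m6A is a methyl mark placed mainly in the 3′ parts of mRNAs, and its presence was read from peaks that the authors called in each group on the 3 immunoprecipitated and 3 input libraries pooled. The study also called peaks in each sample, and those calls were not used here. The pooled lists, 1 for each group, carry no replicate error for a peak, so the fold enrichments below are descriptions without a test. A fold enrichment is the ratio of immunoprecipitated to input signal in a peak. The same input libraries gave the FPKM values above. The lists held 19739 peaks in GM and 20790 in DM. Of the tested genes, 70.9% had at least 1 peak in GM and 78.7% in DM, and all 8 members had one in GM and 7 of 8 in DM. The members held 13 peaks in each list. In GM, 9 were annotated to the 3′ UTR, 2 to the 5′ UTR and 2 to exons, and in DM 9, 1 and 3. Of all GM peaks 42.6%, and of all DM peaks 45.3%, were annotated to 3′ UTRs. Each peak has 1 annotation, also where its blocks lie in more than 1 exon. A peak named below by a UTR can therefore also cover other parts of the transcript. The median fold enrichment of the members' peaks was 3.36 in GM and 2.08 in DM, beside 3.27 and 3.38 over the whole lists.

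**Figure D4:**
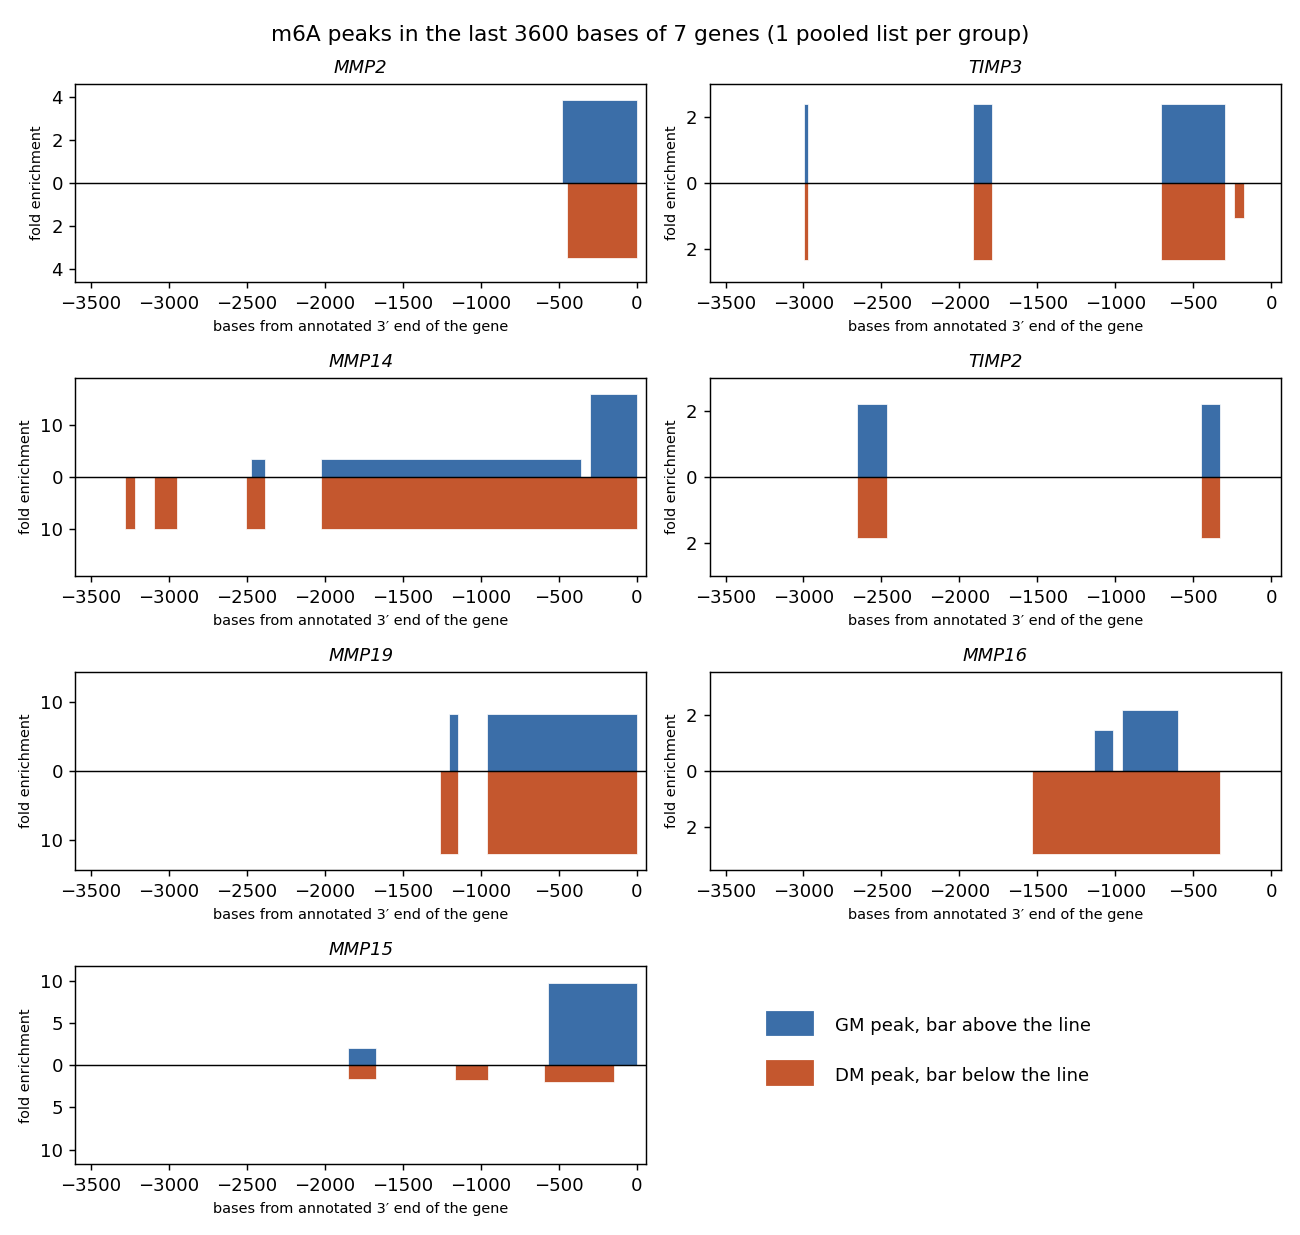
Peaks of m6A in the last 3600 bases of 7 of the genes, with position in bases from the annotated 3′ end on the x axis and fold enrichment on the y axis, GM bars above the line and DM bars below it, each bar covering an exon block of a peak. MMP2, TIMP2 and TIMP3 have nearly the same blocks in both groups, and MMP14 has 2 GM peaks where DM has 1. MMP11 is not drawn, since its only peak runs from its start to 3578 bases before its 3′ end.

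MMP2, TIMP2 and TIMP3, the members that rose in mRNA level, had peaks annotated to the 3′ UTR at close values in both lists. MMP2 had 1 peak in each group at the very 3′ end, chr18:23779641-23780118 in GM with a fold enrichment of 3.84 and chr18:23779670-23780118 in DM with 3.51. TIMP3 had a peak of the same span in both, chr5:71456270-71458972 in 3 exon blocks, with fold enrichments of 2.37 in GM and 2.34 in DM, and a further DM peak of 60 bases nearer the 3′ end with 1.06. TIMP2 had a peak annotated to the 3′ UTR, also in 3 exon blocks. It began at 53510759 in GM and 53510730 in DM and ended at 53514610 on chromosome 19, with fold enrichments of 2.21 and 1.84. In each of these 3 pairs the DM value was the lower one, by ratios of 0.914 (MMP2), 0.987 (TIMP3) and 0.833 (TIMP2).

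In DM, a second peak of TIMP2, chr19:53485033-53485630, was annotated to exon 2 of the 2 exons of ENSBTAG00000039283. Its fold enrichment was 8.52, but its log10 false discovery rate was -1.13, above 0.05, in a region where the annotated gene was below 0.1 FPKM.

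MMP14 carried the highest fold enrichment among the members' peaks. In GM its 3′ end held a peak of 299 bases (chr10:21967557-21967855) with a fold enrichment of 15.8 and, upstream of it, a peak of 1758 exon bases (chr10:21967914-21970031) with 3.36. In DM a single peak of 2353 exon bases in 4 blocks (chr10:21967557-21970836) with 9.91 covered both. A 5′ UTR peak of 180 bases (chr10:21977983-21978162), with a fold enrichment of 9.80, was in the GM list only. Since 2 peaks in GM met 1 in DM, no ratio of DM to GM was taken for MMP14.

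MMP19, which fell in mRNA level, had a peak of 2 exon blocks, annotated to the 3′ UTR and reaching the end of the gene, in both groups. It spanned chr5:57431847-57433048 in GM with a fold enrichment of 8.23 and chr5:57431787-57433048 in DM with 12. The ratio of 1.46, DM over GM, was just under 1.5 and was the only ratio above 1 among the members' pairs. MMP11 had 1 peak, in GM, at chr17:71231375-71236276, annotated to exon 1 of 8, with a fold enrichment of 2.72. This peak had 2 exon blocks, at 8363 to 8479 and at 3578 to 3726 bases before the 3′ end. MMP11 had none in the DM list, where its level was 2.29 ± 0.188 FPKM (SD, n = 3).

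MMP15 and MMP16, whose mRNA levels did not pass the test, had the largest differences in fold enrichment among the members' pairs. In MMP15, the peak of the 3′ UTR at chr18:25960153-25960720 in GM had a fold enrichment of 9.80, and the overlapping DM peak at chr18:25960123-25960571 had 1.98, a ratio of 0.202. Its exon 10 peak, of the same 180 bases in both (chr18:25958869-25959048), had 2.09 in GM and 1.67 in DM, and a further 3′ UTR peak with 1.76 was in the DM list only, with a log10 false discovery rate of -1.21, above 0.05. In MMP16, the 5′ UTR peak, spread over 3 exon blocks of 449 bases in all, had a fold enrichment of 4.66 in GM (from chr14:74381958) and 2.08 in DM (from chr14:74381988), a ratio of 0.446. At its 3′ end, 2 GM peaks with 1.48 and 2.20 met 1 DM peak with 2.97, and a DM peak in exon 8 of 10 with 1.54 had no GM partner.

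Some fold enrichments in the lists recur in many peaks. Above 5, the 6 most frequent values of each list were spaced by 1.09 in GM and by 1.06 in DM and were held by 2015 and 1999 peaks. The value of 9.80, which the MMP15 3′ UTR peak and the MMP14 5′ UTR peak shared in GM, was held by 255 of the 308 GM peaks within 3% of it, and the 8.52 of the second TIMP2 peak by 435 of the 538 DM peaks within 3%. By contrast, the 8.23 of MMP19 in GM was held by 7 of 137 peaks and the 4.66 of MMP16 in GM by 9 of 476. The part of this spacing in the MMP15 ratio was not tested.

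Over the members, 7 pairs of exactly 1 GM and 1 DM peak shared exon bases, and 10239 such pairs were found in the lists. Of all pairs, 25.0% were past a 1.5-fold ratio, 10.8% lower and 14.2% higher in DM, and of the 7 members' pairs 2 were lower (MMP15 3′ UTR and MMP16 5′ UTR) and 0 higher. The DM value was the lower one in 6 of the 7, beside 42.9% of all pairs, and the median log2 ratio was -0.26 over the members' pairs and 0.07 over all. Overlapping peaks that did not match 1 to 1 are not in these counts. Among these, the DM peak of MMP14 with 9.91 met GM peaks with 15.8 and 3.36. The DM peak at the 3′ end of MMP16 with 2.97 met GM peaks with 1.48 and 2.20.

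**Figure D5:**
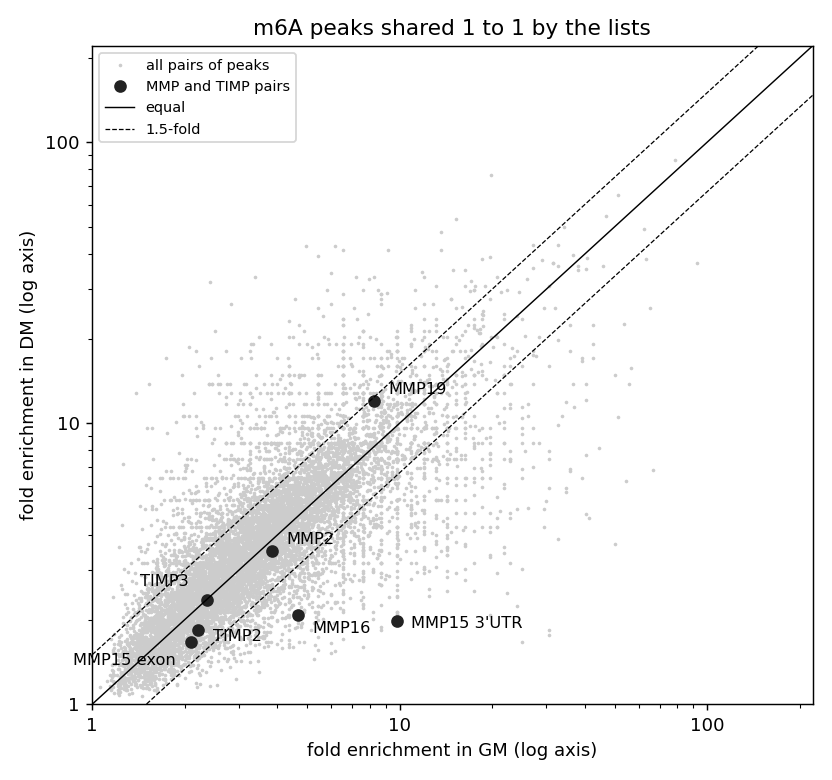
Fold enrichment in DM against fold enrichment in GM, both on log axes, for the 10239 pairs of peaks (grey) and the 7 pairs of the described genes (black). The MMP16 5′ UTR pair and the MMP15 3′ UTR pair lie below the lower dashed line of a 1.5-fold ratio, and MMP19 lies above the line of equal values.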

How the data were processed

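The authors trimmed reads, aligned them with HISAT2 to ARS-UCD1.2 and computed FPKM per gene with StringTie for the 6 input libraries. The deposited FPKM table used here holds no counts. The study's methods name Trimmomatic, and the submitters' processing notes list cutadapt, fastp, HOMER and ChIPseeker, with versions not given in the sources used here. The authors called m6A peaks with exomePeak on pooled libraries and deposited 1 list per group, with a fold enrichment (a ratio), a p-value and log10 values for each peak. These were used as deposited.

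Here log2(FPKM + 1) was fitted with limma 3.58.1 (R 4.3.3), with a variance trend, on the 12302 genes whose mean over the libraries reached 0.5 FPKM. All 8 members with a row passed this filter. A call needed p below 0.05 before adjustment and more than a 1.5-fold change, with Benjamini-Hochberg adjustment over all tested genes. Fold changes on this scale understate the change of low genes. Peaks were paired when exon blocks of the same strand had 1 base or more in common. The 6 immunoprecipitated libraries were used only through the pooled lists, so peaks have no replicate test here, and the study's peak calls per sample were not used. The calling was tested on simulated data for this comparison (12125 genes, 200 changed), which recovered 100% of the genes changed 2-fold and 100% of those changed 3-fold, with 21 unchanged genes called. The lowest genes were not among those changed, and no change below 2-fold was simulated. All members changed by less than 2-fold on this scale, so recovery of changes of their size was not tested.

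The text names all members and their peaks, and of each wider list the called genes up to 4 by absolute log2 fold change. The members, the lists and the markers were chosen with earlier results of these data known. Symbols not in the gene table were matched through synonyms of a RefSeq gene table. Alternatives were other pseudocounts, filters, scalings and thresholds, a replicate block, leaving out each library, and stricter peaks and overlaps. Pairs and figures were made with Python 3.11.15, pandas 2.3.3 and matplotlib 3.10.9.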

Additional observations from a re-analysis of the deposited data

How the results depend on the processing

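MMP2, MMP14, MMP15, MMP19, TIMP2 and TIMP3 kept their direction and their side of the thresholds under all 14 alternatives, with log2 fold changes of 0.64 to 0.77, 0.35 to 0.49, -0.13 to -0.01, -1.01 to -0.84, 0.96 to 1.13 and 0.81 to 0.95. The call of MMP11 (-0.80 to -0.52) was lost under 3 of them, so the members called lower numbered 1 with size factors and 1 to 2 when single libraries were left out. MMP16 changed sign without GM replicate 1 (-0.0079) and without DM replicate 3 (-0.0040), and ran from -0.0079 to 0.052 when single libraries were left out. At a fold change of FPKM + 1 over 2, 0 members were called, 0 higher and 0 lower, and 6 genes of the wider lists. TIMP2 lay just under that limit. In mean FPKM without the added 1, DM was 2.01 times GM for TIMP2 and 0.493 times GM for MMP19. Rescaling to TPM shifted the median of all genes by 0.11 on the log2 scale, to 0.06, and the share of calls that were higher from 41.3% to 55.1%, with 48.6% under size factors, and 5 members were still called under TPM.

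Of the members' peaks, 7 in DM had a fold enrichment of at least 2. Of their pairs, 1 was past 1.5 at that minimum (1 lower) and 1 at a false discovery rate under 0.001 (1 lower), the MMP16 5′ UTR pair in both. The MMP15 3′ UTR pair dropped out in both, since its DM peak had a fold enrichment of 1.98 and a log10 false discovery rate of -2.22. Where 50% of each peak had to be shared, 1 was higher, MMP14, since only its longer GM peak then meets the DM peak.

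Cultures with the same number did not deviate together (correlations of -0.0792, -0.123 and -0.208), so the numbers were not taken to pair them. With a replicate block, 5 members were called, 3 higher and 2 lower, and 14 genes of the wider lists. The precision that depth gives to each FPKM value was not estimated, since read counts were not used here, and the fold enrichments come from pooled lists.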

Other observations

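Of 18 other MMPs and TIMPs that were looked up, 9 had a row in the table, and most of these were near 0 in these cells. TIMP1 was among those without a row, so its level is not known here. MMP23, a membrane-anchored MMP, was the most abundant of them, at 22.6 ± 2.33 FPKM (SD, n = 3) in GM and 29.3 ± 3.02 FPKM in DM, with a log2 fold change of 0.36 (limma adjusted p = 0.0144) that was below the 1.5-fold threshold. MMP28, or epilysin, measured 1.24 ± 0.0856 and 1.46 ± 0.224 FPKM (limma adjusted p = 0.286), and its 3′ UTR held 2 GM peaks with fold enrichments of 2.07 and 3.61 and 1 DM peak with 5.15. MMP25, a membrane-type protease of leukocytes, was listed at 0.346, 0.298 and 0.303 FPKM in GM and at 0 in all 3 DM libraries. It had 3 exon peaks in GM, with fold enrichments of 2.96 to 4.36, and none in DM. TIMP4 was listed at 0.804, 0.758 and 0.353 FPKM in GM and at 0.0928, 0.0710 and 0 FPKM in DM, and it had a 3′ UTR peak with a fold enrichment of 6.32 in GM and none in DM. Both genes were below the filter on low FPKM and were not tested. The groups did not overlap for either, nor for MMP1 and MMP23, and among all tested genes 54.1% were without overlap. MMP1, MMP3, MMP17, MMP20 and MMP24 had means under 0.1 FPKM in both groups.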
